A study of Rattus norvegicus with 74 samples.

Results

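Phenobarbital at 5 mg/kg was compared with 0 mg/kg in rat liver, over 5 arrays of each group, which are 10 of the 74 arrays in the series. All arrays labelled with this agent and these doses were taken, and no measured value entered that choice. The animals were Wistar Han rats (Crl:WI (Han)) dosed by oral gavage, and each array carries RNA from pieces of the left liver lobe. The labels describe exposure in the womb and after birth up to postnatal day 22 for every array, but they spell out dams, pups and dosing days for the brominated diphenyl ethers BDE-47 and DE-71 and not for phenobarbital. A higher phenobarbital group received 45 mg/kg (5 arrays), and its values stand beside those of the low dose. The 0 mg/kg arrays compared here are the phenobarbital study's own controls, and what they were given in place of the drug is not stated. Litter and sex are not given either, and the spread behind each p-value, which may be technical, was estimated over 72 samples in 15 groups, most of them from the arms of other agents. Whole tissue was measured, so fewer cells of a type and less RNA per cell cannot be told apart.

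Phenobarbital is a sedative and anticonvulsant and the standard activator of the nuclear receptor CAR in rodent liver. Activated CAR, together with its relative PXR, raises transcription of cytochrome P450, glucuronidation, carboxylesterase and transporter genes that clear drugs and steroids, and at high doses phenobarbital enlarges the liver and starts a burst of hepatocyte division. Cholesterol synthesis is a chain of enzymes from acetyl-CoA through mevalonate, isoprenoids, squalene and lanosterol, whose genes are switched together by SREBP2 when sterols in the endoplasmic reticulum run low. The liver of a rat around weaning is still growing, so genes of DNA replication and mitosis are expressed in it without any treatment.

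Hepatocyte genes were high in all 10 arrays, with albumin (Alb) at 14.9 to 14.94 and Apoa1 at 13.83 to 14.09 log2 units. The T cell gene Cd3e lay at 4.69 to 5.11 and the pancreatic genes Prss1 and Pnlip at 3.08 to 3.51 and 3.77 to 4.15. Cela1, from the same list of pancreas and gut markers, was high at 10.19 to 10.75, and the source of its signal was not tested. The Y-linked gene Eif2s3y lay between 8.22 and 9.26 and Xist between 2.75 and 3.26 in all 15 phenobarbital arrays, whereas Xist reached 9.89 elsewhere in the series. Though the labels give no sex, all 15 arrays thus had the male pattern of these genes. An array correlated with the others of its group at a mean of 0.9899 to 0.9947 over all genes, and no pair of phenobarbital arrays was near-identical.

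The low dose gave a small response in which drug-metabolising genes and cholesterol synthesis genes were higher. Of 14217 genes tested with limma, 15 were called at an adjusted p below 0.05, which is 0.106% of genes: 12 rose (0.0844%) and 3 fell (0.0211%). A repeated quantile normalization split the calls into 11 higher and 5 lower. In 14 of the 15 called genes the 5 treated arrays did not overlap the 5 controls. Over all genes, 0.732% had every treated array higher and 1.55% had every treated array lower. The genes were called from these same arrays, so their separation is no further support for the calls. Of the 12 that rose, 8 stand on the lists of CAR and PXR targets, conjugating enzymes or P450 partners (Ugt2b1, Cyp2c6v1, Ces2c, Cyp2c7, Pgrmc1, Ugt2b35, Gstt3 and Ugt2a1), 3 are cholesterol synthesis enzymes (Sc5d, Msmo1 and Idi1) and the last is Slc17a3, a gene for an organic anion transporter. At 45 mg/kg 384 genes were called against the same controls, 2.7% of those tested, and 12 of the 15 genes were among them. Leaving out single arrays moved the low-dose count between 5 and 24. It was 6 without control replicate 1, 5 without treated replicate 2, 24 without treated replicate 3 and 6 without treated replicate 4, and the calls of Ugt2b1, Cyp2c6v1, Ces2c and C2h3orf80 were the 4 that held in all 10 of these fits. All of these fits estimate the spread with arrays of the other agents too. With the 15 phenobarbital arrays alone 5 of the 15 calls were lost: C2h3orf80, Pgrmc1, Ugt2b35, Gstt3 and Slc17a3 (limma adjusted p = 0.133, 0.0902, 0.0673, 0.118 and 0.146). With only the 10 arrays at 0 and 5 mg/kg these 5 had limma adjusted p of 0.279, 0.189, 0.148, 0.148 and 0.201, and Sc5d, Inhbb and Ugt2a1 were lost as well, at 0.0685, 0.0505 and 0.0546. The 7 genes called in both of these fits were Ugt2b1, Cyp2c6v1, Ces2c, Cyp2c7, Msmo1, Idi1 and Creb3l3.

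**Figure D1:**
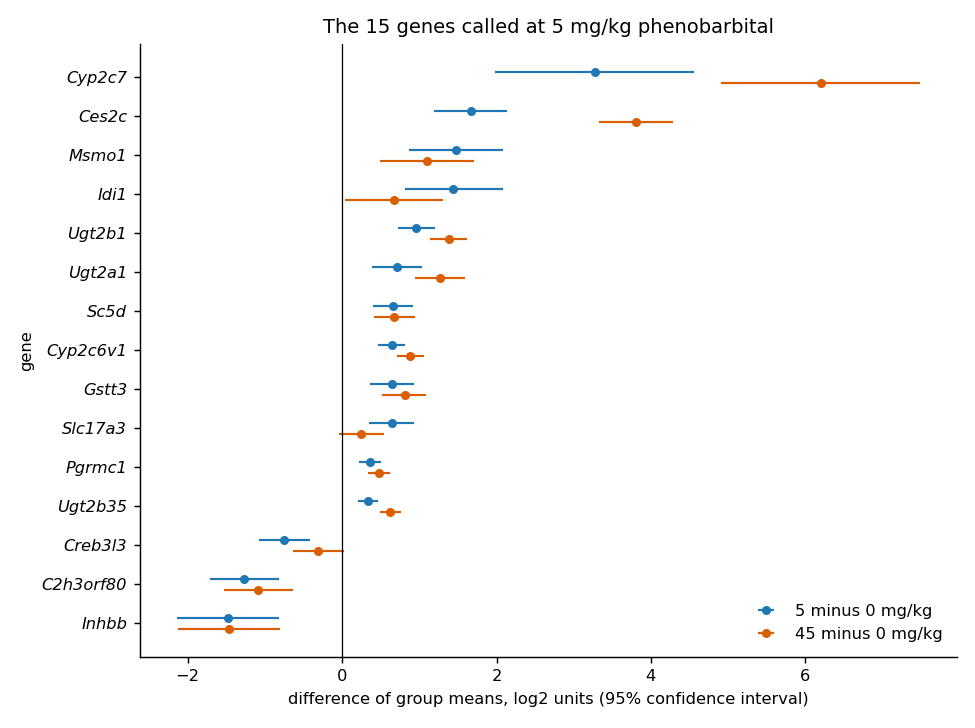
Difference of group means in log2 units with its 95% confidence interval from limma, for the 15 genes called at 5 mg/kg (rows), at 5 minus 0 mg/kg (blue) and 45 minus 0 mg/kg (orange), n = 5 arrays per group with shared controls. Cyp2c7 and Ces2c are far higher at 45 than at 5 mg/kg, whereas Msmo1, Idi1 and Slc17a3 have their higher value at 5 mg/kg.

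Among the P450 genes, Cyp2c7, which encodes a steroid and retinoid hydroxylase, changed most. Its log2 level was 7.91, 7.41, 7.33, 6.82 and 6.87 in the 0 mg/kg arrays and 10.63, 10.59, 9.42, 10.18 and 11.89 in the 5 mg/kg arrays, in replicate order. Every treated array was above every control, and replicates 3 and 5 were the extremes among the treated. The gene rose by 3.27 ± 0.65 log2 units (SE from the spread over 72 samples, n = 5 per group), 9.66-fold, with a limma adjusted p of 0.0097. In the fit of the 10 arrays alone the SE was 0.36 and the limma adjusted p 0.006. Among the fits that leave out an array but keep the other agents, the call was lost only without 5 mg/kg replicate 5, at an adjusted p of 0.051. At 45 mg/kg the arrays lay between 13.23 and 13.58, a further 2.93 log2 units above the low dose (limma adjusted p = 0.0088), so the 3 dose groups did not overlap.

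Cyp2c6v1, a phenobarbital-inducible P450 of the same subfamily, was already near the top of the array's range in controls, at 13.1, 13.43, 13.1, 13.26 and 13.4. The treated arrays read 13.92, 13.94, 13.93, 13.72 and 13.98. All of them were higher than any control, and the gene rose by 0.64 ± 0.09 log2 units (1.56-fold, limma adjusted p = 4.1e-06). Genes of the Cyp2c subfamily are close in sequence, and how far their probe sets share signal was not tested. The male-biased P450 gene Cyp2c11 had non-overlapping groups at 4.97 to 6.23 and 6.37 to 8.14, but its difference of 1.52 ± 0.37 missed the threshold (limma adjusted p = 0.097).

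Cyp2b1 and Cyp2b2, the classic reporters of CAR, are read by a probe set annotated to both, which is outside the gene table. It gave 12.02, 11.84, 12.26, 12.16 and 12.33 in controls and 13.55, 12.67, 13.38, 13.18 and 13.48 at 5 mg/kg, without overlap. The difference of 1.13 ± 0.21 log2 units was called in the fit over all probe sets (limma adjusted p = 0.0038), and the mean at 45 mg/kg was 14.09 ± 0.05 (SD, n = 5). Cyp2b3 and Cyp2b12, which are in the gene table, differed by 0.07 ± 0.37 and -0.04 ± 0.09 at 5 mg/kg (limma adjusted p = 0.99 and 0.97). Genes of the Cyp3a subfamily on the list of CAR and PXR targets differed by less than the Cyp2b1 and Cyp2b2 probe set, and none was called at 5 mg/kg. Cyp3a23-3a1, a main PXR target, read 12.75, 13, 13.14, 13.17 and 13.1 in controls against 13.58, 13.49, 13.29, 13.52 and 13.49, a non-overlapping difference of 0.44 ± 0.11 that was not called (limma adjusted p = 0.097) and reached 1.01 at 45 mg/kg (adjusted p = 4e-10). Cyp3a2 differed by 0.18 ± 0.06 (limma adjusted p = 0.4), from control levels of 13.74 to 13.99. The other Cyp3a genes of the list differed by 0.31 ± 0.11 and 0.65 ± 0.28 (limma adjusted p = 0.55 and 0.69). Cyp3a23-3a1 and Cyp3a2 lie near the top of the array's range (highest value 14.94). Whether this compressed their differences was not tested.

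Ces2c, a carboxylesterase that hydrolyses ester drugs, showed graded levels. The control arrays read 9.11, 7.84, 8.29, 9.35 and 8.2, and the 5 mg/kg arrays 10.26, 10.21, 9.9, 10.29 and 10.47. Controls were spread over more than a log2 unit while the treated arrays lay close together and above them all. Ces2c rose 3.18-fold (1.67 ± 0.24 log2 units, limma adjusted p = 1e-05) and stood another 2.14 log2 units higher at 45 mg/kg, where the arrays lay between 12.21 and 12.5 (45 against 5 mg/kg, adjusted p = 4.5e-09).

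Conjugating enzymes, which attach glucuronic acid, sulfate or glutathione to their substrates, made up 4 of the 12 genes that rose. Ugt2b1, a glucuronosyltransferase of steroids and drugs, had the lowest p of all genes. Its levels were 12.32, 12.57, 12.5, 12.37 and 12.17 in controls and 13.42, 13.2, 13.38, 13.36 and 13.37 at 5 mg/kg. The groups were far apart for their spread, and the gene rose by 0.96 ± 0.12 log2 units, 1.95-fold (limma adjusted p = 4.1e-07). A pair of relatives rose less. Ugt2b35 went from 12.91, 13.1, 12.98, 13 and 13.04 to 13.39, 13.49, 13.19, 13.26 and 13.38 (0.34 ± 0.07, limma adjusted p = 0.011). Ugt2a1, a dim gene in liver, went from 4.97, 4.99, 4.53, 5.19 and 5.14 to 5.76, 5.61, 5.44, 5.68 and 5.88 (0.71 ± 0.16, limma adjusted p = 0.039). Both sets of groups were separate, and the calls of Ugt2b35 and Ugt2a1 held in 8 and 3 of the 10 fits that leave out an array.

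In the RefSeq annotation of the GRCr8 assembly the UGT2 genes are neighbours of sulfotransferase genes, a stretch singled out after the values were seen. In chromosome order its measured genes were Sult1e1, Sult1d1, Sult1b1, Ugt2a1, Ugt2b, Ugt2b15, Ugt2b35, Ugt2b7, Ugt2b1, Ugt2b10 and Ugt2b34l1, and their log2 differences at 5 mg/kg were 0.43, -0.06, 0.91, 0.71, 0.4, 0.4, 0.34, 0.1, 0.96, 0.43 and -0.29. The 3 called genes are thus not side by side: Ugt2b7 and Ugt2b15, with differences of 0.1 and 0.4 and limma adjusted p of 0.93 and 0.36, lie next to called ones. Sult1b1, which sulfates thyroid hormone, was spread from 9.29 to 10.66 in controls and from 10.55 to 11.36 at 5 mg/kg, and its difference of 0.91 ± 0.34 was not called (limma adjusted p = 0.57). It was called at 45 mg/kg, at 2.23 (limma adjusted p = 4.2e-06).

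Gstt3, a theta-class glutathione S-transferase, read 11.3, 11.34, 11.53, 11.06 and 11.47 in controls and 11.78, 12.34, 11.7, 12.3 and 11.78 at 5 mg/kg. It rose by 0.64 ± 0.14 (limma adjusted p = 0.037), with replicates 2 and 4 well above the other treated arrays, and without replicate 2 its adjusted p was 0.28. Pgrmc1, a heme-binding membrane protein that partners P450 enzymes, read 12.78, 12.81, 12.61, 12.84 and 12.89 against 13.19, 13.33, 12.98, 13.24 and 13. This was the smallest rise but one, 0.36 ± 0.07 log2 units or 1.28-fold (limma adjusted p = 0.0097), and without 5 mg/kg replicate 2 its adjusted p was 0.12.

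Over the whole list of CAR and PXR targets, 4 of 23 measured members rose at 5 mg/kg and none fell, against 0.0844% and 0.0211% of all genes. This list and the others were chosen with earlier results of these data known, so their counts are descriptive and no independent test. The group mean was higher in 21 of the 23, compared with 44.7% of all genes, and the list's median difference was 0.57 log2 units beside -0.016 over all genes. In 10 members all treated arrays were above all controls, against 0.732% of all genes. The list's median in each treated array, measured from the control means, was 0.54, 0.68, 0.26, 0.49 and 0.39, so every treated array was above the controls, which lay between -0.06 and 0.06. A further 9 genes of the list were not analysed here. At 45 mg/kg 17 members rose, against 1.38% of all genes, and the median was 1.26. Members not called at 5 mg/kg include Ephx1, the microsomal epoxide hydrolase, with non-overlapping arrays at 11.38 to 12.57 and 12.7 to 13.43 (0.98 ± 0.26, limma adjusted p = 0.16), and the exporter Abcc3 (0.59 ± 0.23, adjusted p = 0.59). Cyp1a1, the index gene of the aryl hydrocarbon receptor, differed by 0.67 ± 0.57 with overlapping arrays (limma adjusted p = 0.9). Cyp4a8, a P450 on the PPAR-alpha and sex-biased lists, read 4.85 to 6.23 in controls and 6.84 to 7.77 at 5 mg/kg. Its difference of 1.66 ± 0.42 was not called either (limma adjusted p = 0.11). Of the 22 measured genes on the PPAR-alpha list 18 had a lower mean (55.3% of all genes did), and the median was -0.11. Among conjugation genes, 3 of 18 UGT and sulfotransferase genes and 1 of 20 glutathione S-transferases rose, with medians of 0.28 and 0.11. Of 18 genes of P450 electron supply and heme synthesis 1 rose, and Por and Alas1, the P450 reductase and the first enzyme of heme synthesis, differed by 0.32 ± 0.21 and 0.36 ± 0.22 with overlapping arrays (limma adjusted p = 0.83 and 0.82).

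The 45 and 5 mg/kg arrays were compared directly, and 97 genes were called there, 0.682% of those tested. Cltrn, which encodes the membrane protein collectrin, read 3.21, 3.37, 3.1, 3.11 and 3.35 in controls and 3.89, 3.83, 3.13, 4.53 and 4.17 at 5 mg/kg, then 8.05, 9.27, 7.72, 8.43 and 7.39 at 45 mg/kg. Its control values lie at the level of Prss1 and Xist, where the array does not show how low a gene is, so the step from 0 to 5 mg/kg is no measure of how little the gene changed. The low-dose difference of 0.68 ± 0.38 was not called (limma adjusted p = 0.79), whereas 45 exceeded 5 mg/kg by 4.26 log2 units (adjusted p = 1.4e-12). Gadd45b, a stress and growth response gene, read 5.79, 4.72, 4.82, 4.97 and 4.48 in controls and 5.64, 4.86, 4.94, 5.25 and 4.93 at 5 mg/kg, which overlap, and 8.2, 7.19, 6.48, 5.25 and 6.86 at 45 mg/kg. Its step from 5 to 45 mg/kg was 1.67 (limma adjusted p = 0.00061). Meox2, a homeobox gene, went the same way, with differences of 0.57 ± 0.32 at 5 mg/kg (limma adjusted p = 0.79) and 1.75 from 5 to 45 mg/kg (adjusted p = 0.00055). Aldh1a1, a retinal dehydrogenase, was intermediate: its groups did not overlap at 5 mg/kg (11.53 to 12.1 against 12.21 to 12.68), the difference of 0.57 ± 0.15 had an adjusted p of 0.15, and 45 stood 0.7 above 5 mg/kg (limma adjusted p = 0.0062). Cltrn and Meox2 were singled out after their values were seen.

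**Figure D2:**
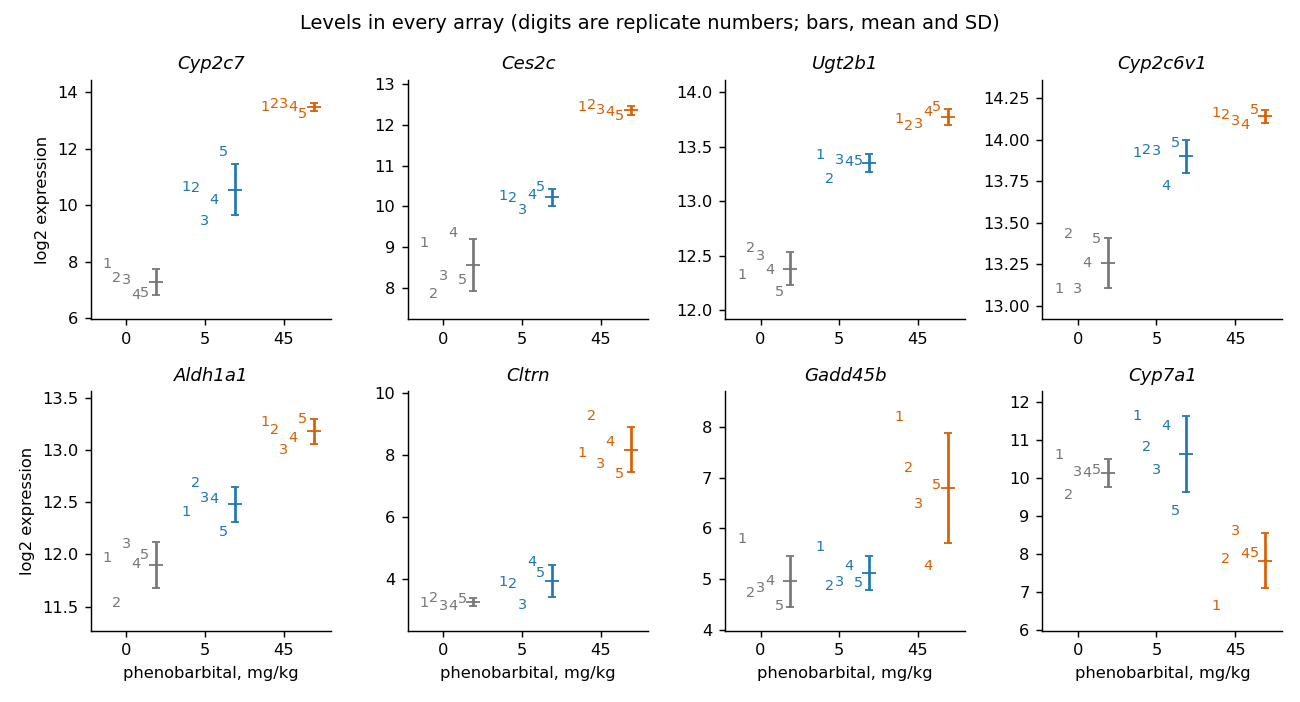
Log2 expression in every phenobarbital array for 8 genes, with the replicate number as the mark and the group mean with its SD beside it (n = 5 arrays per dose). Cyp2c7, Ces2c, Ugt2b1 and Cyp2c6v1 are separated from the controls at 5 mg/kg, Cltrn and Gadd45b differ more between 5 and 45 mg/kg than between 0 and 5 mg/kg, and Cyp7a1 is lower at 45 mg/kg only.

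Cholesterol synthesis was the other group with several calls. The promoters of the 3 called enzymes are printed to show the short elements they hold. Whether these elements bear on the levels of the genes was not tested. They are RefSeq sequences of the GRCr8 build, 250 bases before to 50 after the start, at chr17:66547475-66547774 on the minus strand for Idi1, chr16:29746863-29747162 on the plus strand for Msmo1 and chr8:51538228-51538527 on the minus strand for Sc5d. Capitals mark the NF-Y box CCAAT and the Sp1 box GGGCGG, on either strand.
Idi1: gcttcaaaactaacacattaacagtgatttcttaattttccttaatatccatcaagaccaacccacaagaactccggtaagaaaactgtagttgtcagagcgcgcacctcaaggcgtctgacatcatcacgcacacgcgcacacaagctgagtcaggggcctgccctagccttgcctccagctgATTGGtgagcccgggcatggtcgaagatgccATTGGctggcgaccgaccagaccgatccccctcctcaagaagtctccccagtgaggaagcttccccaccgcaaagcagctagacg
Msmo1: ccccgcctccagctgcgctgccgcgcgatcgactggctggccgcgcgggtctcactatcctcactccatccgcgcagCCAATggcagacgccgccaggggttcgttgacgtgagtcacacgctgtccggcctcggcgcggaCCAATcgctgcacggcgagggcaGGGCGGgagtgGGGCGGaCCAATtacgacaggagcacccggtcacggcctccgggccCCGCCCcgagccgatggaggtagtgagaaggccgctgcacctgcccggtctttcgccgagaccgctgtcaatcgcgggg
Sc5d: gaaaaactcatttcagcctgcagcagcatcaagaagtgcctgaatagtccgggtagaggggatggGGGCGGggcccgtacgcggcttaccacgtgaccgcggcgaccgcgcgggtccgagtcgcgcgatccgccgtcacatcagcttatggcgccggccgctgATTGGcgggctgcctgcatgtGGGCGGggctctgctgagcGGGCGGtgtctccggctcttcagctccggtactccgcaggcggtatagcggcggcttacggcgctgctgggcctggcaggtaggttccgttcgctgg
The Msmo1 window has 3 NF-Y and 3 Sp1 boxes, Sc5d has 1 and 3, and Idi1 has 2 NF-Y boxes and no Sp1 box. A promoter was found for 16 of the 19 measured enzymes. For a gene with several starts the one listed first was used. The NF-Y box was in 13 of the 16, compared with 37.7% of all 27457 promoters and 37.3% of those of measured genes, and the Sp1 box in 13, compared with 34.9% and 57.5%. The sterol regulatory element, searched as TCACNCCAC, was in 0 of the 16 and in 1.13% of all promoters, which says only that these letters are not in these windows. None of the motifs searched overlapped in the printed windows.

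All 19 measured cholesterol synthesis enzymes had a higher mean at 5 mg/kg, 3 of them were called, and the median difference was 0.76 log2 units. A further 3 genes of the list were not analysed here. In 11 of the 19 every treated array was above every control. The scale of this list stands beside 0.0844% of all genes called higher, 0.732% without overlap and 44.7% with a higher mean. The list was chosen with earlier results of these data known, so its counts are descriptive. The number of called enzymes depended on single arrays: it was 0 when control replicate 1, treated replicate 2 or treated replicate 4 was left out, 1 without control replicate 3, and 9 without treated replicate 3. The list's median difference lay between 0.61 and 0.88 in these 10 fits.

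In pathway order, Acat2, which joins acetyl-CoA units, read 7.52, 7.76, 8.08, 7.9 and 7.72 in controls and 8.66, 9.48, 8.23, 9.77 and 9.01 at 5 mg/kg. The groups did not overlap, and the difference of 1.23 ± 0.33 was not called (limma adjusted p = 0.15). The mevalonate kinases and decarboxylase Mvk, Pmvk and Mvd differed by 0.46, 0.66 and 0.78 (limma adjusted p = 0.56, 0.57 and 0.27). For Mvk, a further probe set gave -0.09 and another 0.81. Idi1, which makes the reactive isoprene unit dimethylallyl diphosphate, read 8.92, 9.4, 9.34, 9.68 and 9.19 in controls and 10.46, 10.95, 10.03, 11.46 and 10.83 at 5 mg/kg. All treated arrays exceeded the controls, with replicate 4 highest and replicate 3 lowest. Idi1 rose by 1.44 ± 0.32 log2 units, 2.72-fold (limma adjusted p = 0.037), and its other probe set gave 1.42. The call held in 3 of the 10 fits that leave out an array.

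The prenyl transferase Fdps and the squalene synthase Fdft1 differed by 0.74 ± 0.25 and 0.76 ± 0.21 (limma adjusted p = 0.44 and 0.16). Ggps1, which leads away from sterols to protein prenylation, differed by 0.02 ± 0.1, and this sign turned under 3 choices of normalization or probe set and in 1 fit without an array. Squalene epoxidase (Sqle), a rate-controlling step, read 7.84, 7.86, 8.05, 7.93 and 7.66 in controls and 9.27, 9.4, 8.52, 9.71 and 8.95 at 5 mg/kg. Controls lay close together and below all treated arrays, and the difference of 1.3 ± 0.33 fell outside the threshold (limma adjusted p = 0.098). The cyclase Lss differed by 0.7 ± 0.23 (adjusted p = 0.44).

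Among the enzymes that turn lanosterol into cholesterol, Cyp51, the sterol demethylase, read 10.13, 10.19, 10.43, 10.11 and 9.98 against 11.09, 11.62, 10.66, 11.78 and 11.43. Its difference was 1.15 ± 0.28 (limma adjusted p = 0.097), and a second probe set with the same difference of 1.15 was called in the fit over all probe sets (adjusted p = 0.028). Msmo1, the methylsterol oxidase, read 9.19, 9.72, 9.47, 10.06 and 9.65 in controls and 11.05, 11.25, 10.3, 11.69 and 11.16 at 5 mg/kg. The gene rose by 1.47 ± 0.31 log2 units, 2.77-fold (limma adjusted p = 0.017), with no overlap, and the call held in 6 of 10 fits without an array. Sc5d, the desaturase near the end of the pathway, read 10.39, 10.79, 10.92, 10.96 and 10.8 against 11.5, 11.5, 11.11, 11.61 and 11.44. It rose by 0.66 ± 0.13 (1.58-fold, limma adjusted p = 0.0097), and its 3 probe sets gave 0.6 to 0.75.

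The other late enzymes had positive differences that were not called. Tm7sf2, a sterol reductase, differed by 1.29 ± 0.35, Dhcr7, the last reductase, by 1.04 ± 0.27, Hsd17b7 by 0.96 ± 0.24, Ebp by 0.51 ± 0.18, the sterol reductase and nuclear membrane protein Lbr by 0.31 ± 0.22 and Nsdhl by 0.2 ± 0.13, with limma adjusted p from 0.097 to 0.87. The smallest differences of the list were thus those of Ggps1, Nsdhl and Lbr.

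Arrays at 5 mg/kg differed in how high the list stood. Measured from the control means, its median was 0.69, 0.88, 0.29, 1.35 and 0.71 in replicates 1 to 5, against -0.1 to 0.06 in the controls. Replicate 4 was thus the highest and replicate 3 the lowest, and the lowest was still above all controls. The 45 mg/kg arrays gave 0.03, 0.75, 0.45, 0.73 and -0.08, so 2 of them were in or near the control range. At that dose the list's median difference from the same controls was 0.34 and 2 members were called higher, against 1.38% of all genes. Directly compared, 45 mg/kg was lower than 5 mg/kg in 17 of the 19 enzymes (52.5% of all genes were lower), with a median of -0.49, and 0 were called with limma, 9 of them lower at an unadjusted p below 0.05 (3.22% of all genes). Sc5d stood 0.66 and 0.67 above controls at 5 and 45 mg/kg, and Idi1 1.44 and 0.67.

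**Figure D3:**
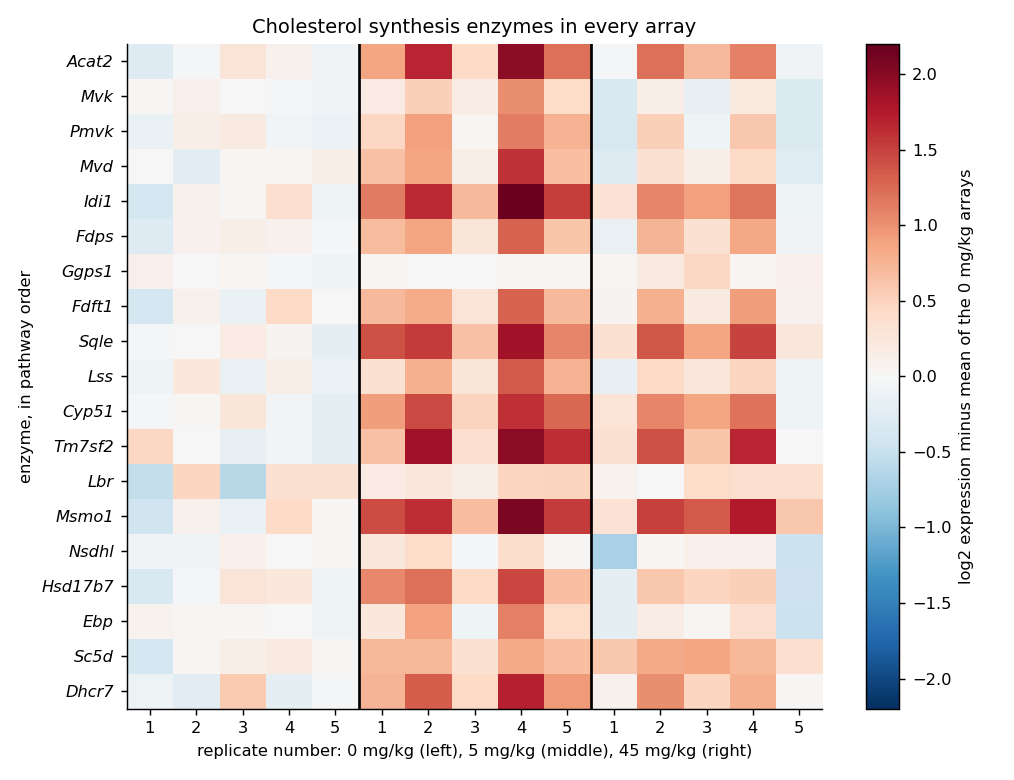
Log2 expression minus the mean of the 0 mg/kg arrays for the 19 measured cholesterol synthesis enzymes (rows, pathway order) in each phenobarbital array (columns; 0, 5 and 45 mg/kg from left to right, colour scale in log2 units). The 5 mg/kg block is red in nearly all rows, deepest in replicate 4 and palest in replicate 3, and the 45 mg/kg block is red in replicates 2, 3 and 4.

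The list of SREBP control and sterol uptake, which mixes regulators with SREBP targets, had a median difference of -0.06. A further 6 of its genes were not analysed here. Every treated array was above every control in 1 measured member and below in 1, against 0.732% and 1.55% of all genes. Of its 14 measured genes 0 were called with limma, 6 had a higher mean and 5 passed an unadjusted p of 0.05, 3 of them higher, where 6.59% of all genes passed it. Insig1, the sterol-sensing brake on SREBP processing and itself an SREBP target, read 10.17, 9.86, 9.9, 10.46 and 9.53 in controls and 10.13, 11.81, 10.26, 11.07 and 10.74 at 5 mg/kg. The groups overlapped and the difference of 0.82 ± 0.37 was not called (limma adjusted p = 0.72). Srebf1 and Srebf2, the genes of the SREBP factors, differed by -0.2 ± 0.22 and 0.1 ± 0.18 (adjusted p = 0.94 and 0.96). The value of Srebf2 was -0.02 when all of its probe sets were averaged. Stard4, which carries cholesterol between membranes, differed by 0.41 ± 0.15 (limma adjusted p = 0.57).

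Fatty acid synthesis had 0 called genes of 23 with limma (6 at an unadjusted p below 0.05, all higher, against 2.7% of all genes), and a median of 0.08. In 4 of the 23 no arrays overlapped, all higher at 5 mg/kg, against 0.732% of all genes. They include Acss2, which makes acetyl-CoA from acetate, at 1 ± 0.29 (limma adjusted p = 0.28), Acly at 0.82 ± 0.32 and fatty acid synthase (Fasn) at 0.88 ± 0.34 (adjusted p = 0.57 and 0.58). Scd, the stearoyl-CoA desaturase, had the opposite sign: controls read 6.88, 8.72, 8.23, 7.8 and 9.16 and treated arrays 5.89, 7.71, 7, 7.7 and 5.96. This difference of -1.31 ± 0.7 was not called (limma adjusted p = 0.78), and Scd fell by 3.02 log2 units at 45 mg/kg (adjusted p = 0.0058). Cyp7a1, whose product opens the classic route to bile acids, read 10.6, 9.56, 10.15, 10.12 and 10.2 in controls and 11.63, 10.81, 10.2, 11.37 and 9.12 at 5 mg/kg, an overlapping difference of 0.5 ± 0.42 (limma adjusted p = 0.9). From 5 to 45 mg/kg it fell by 2.81 log2 units (limma adjusted p = 1.4e-05).

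Cell cycle genes were lower at 5 mg/kg as a group, and none of them passed the test. All 41 measured genes of G2 and mitosis had a lower mean, compared with 55.3% of all genes, and the median difference was -0.47 log2 units. With limma 0 were called, and 23 of the 41 had an unadjusted p below 0.05, against 3.89% of all genes with a lower mean at that p. In 3 of the 41, Dlgap5, Cdkn3 and Plk1, every treated array was below every control, against 1.55% of all genes. S phase genes had the same sign and smaller values: 24 of 24 had a lower mean, the median was -0.24, 0 were called with limma and 4 had an unadjusted p below 0.05. The 23 genes of cell cycle entry and inhibition had a median of -0.05, with 11 higher. The cell cycle lists too were chosen with earlier results of these data known, so their counts are descriptive.

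The promoters of the 3 G2 and mitosis genes whose groups did not overlap are printed to show the elements known from mitotic promoters. They are RefSeq sequences of GRCr8 at chr15:23144127-23144426 on the minus strand for Dlgap5, chr15:22502136-22502435 on the plus strand for Cdkn3 and chr1:186147408-186147707 on the plus strand for Plk1. Capitals mark CCAAT and the CHR letters TTTGAA on either strand, of which the latter were added to the search after the values were seen.
Dlgap5: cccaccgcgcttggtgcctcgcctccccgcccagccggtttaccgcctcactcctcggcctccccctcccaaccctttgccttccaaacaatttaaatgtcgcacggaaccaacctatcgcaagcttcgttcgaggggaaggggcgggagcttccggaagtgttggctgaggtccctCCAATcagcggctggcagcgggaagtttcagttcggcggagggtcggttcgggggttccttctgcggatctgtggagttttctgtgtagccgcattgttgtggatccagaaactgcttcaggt
Cdkn3: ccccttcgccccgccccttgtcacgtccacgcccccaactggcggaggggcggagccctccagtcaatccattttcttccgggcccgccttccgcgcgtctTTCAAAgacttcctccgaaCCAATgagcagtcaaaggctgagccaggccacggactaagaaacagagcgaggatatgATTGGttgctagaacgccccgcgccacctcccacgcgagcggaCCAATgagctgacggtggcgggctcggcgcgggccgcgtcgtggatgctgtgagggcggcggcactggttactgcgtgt
Plk1: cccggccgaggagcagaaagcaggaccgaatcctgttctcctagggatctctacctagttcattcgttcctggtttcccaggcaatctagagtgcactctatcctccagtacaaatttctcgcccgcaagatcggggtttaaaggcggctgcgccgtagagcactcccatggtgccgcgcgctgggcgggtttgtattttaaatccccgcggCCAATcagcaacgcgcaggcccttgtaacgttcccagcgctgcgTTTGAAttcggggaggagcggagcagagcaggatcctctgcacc
Plk1 holds 1 of each, Cdkn3 holds 3 NF-Y boxes and 1 CHR match, and Dlgap5 holds an NF-Y box alone. Of 36 G2 and mitosis promoters found, 29 held CCAAT and 26 held TTTGAA, compared with 37.7% and 18.1% of all promoters. Among 20 S phase promoters the numbers were 12 and 1. Among 20 promoters of CAR and PXR targets they were 10 and 3.

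Dlgap5, a spindle protein, had the lowest p of the group. Its arrays read 6.09, 6.15, 6.23, 6.69 and 6.09 in controls and 5.82, 5.05, 5.96, 5.48 and 5.57 at 5 mg/kg, a difference of -0.68 ± 0.19 (limma adjusted p = 0.22). Cdkn3, a phosphatase that acts on cyclin-dependent kinases, read 7.6, 7.84, 7.68, 8.32 and 7.73 against 7.09, 6.49, 7.59, 6.99 and 7.19 (-0.76 ± 0.27, limma adjusted p = 0.48). In both genes control replicate 4 was the highest array and treated replicate 2 the lowest. Cdk1, the mitotic kinase, read 7.86, 8.41, 8.39, 8.62 and 8.35 against 7.98, 7.13, 8.22, 7.6 and 7.88, so treated replicates 1, 3 and 5 lay above the lowest control. Its difference was -0.57 ± 0.23 (limma adjusted p = 0.63). The proliferation markers Mki67 and Top2a differed by -0.63 ± 0.29 and -0.62 ± 0.28 (limma adjusted p = 0.73 and 0.72), again with overlap. Cdca3 and Ube2c, which act in the degradation of mitotic proteins, differed by -0.7 ± 0.26 and -0.58 ± 0.21 (limma adjusted p = 0.56 for both). Mcm7, a subunit of the replicative helicase, differed by -0.49 ± 0.15 (adjusted p = 0.34), and Pcna, the polymerase clamp, by -0.12 ± 0.16 (adjusted p = 0.95). Cyclin D1 (Ccnd1) differed by -0.44 ± 0.33 and the inhibitor Cdkn1a by -0.27 ± 0.27 (limma adjusted p = 0.87 and 0.93), and another Cdkn1a probe set gave 0.2.

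The array medians of the G2 and mitosis list were -0.34, -0.99, -0.08, -0.68 and -0.45 at 5 mg/kg. Those of the controls were -0.29, -0.01, -0.02, 0.36 and -0.08, so the groups overlapped: treated replicate 3 was inside the control range, and control replicate 1 was lower than it. The list's median difference was -0.38 without control replicate 4 and -0.37 without treated replicate 2, and 0 genes were called in each of the 10 fits without an array. At 45 mg/kg the arrays lay between -0.06 and 0.18, and the list's median difference from controls was 0.04. Directly compared, 40 of 41 genes were higher at 45 than at 5 mg/kg (47.5% of all genes were higher), with a median of 0.56 and 0 called with limma, 29 of them higher at an unadjusted p below 0.05 (4.11% of all genes). These 3 comparisons share arrays.

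**Figure D4:**
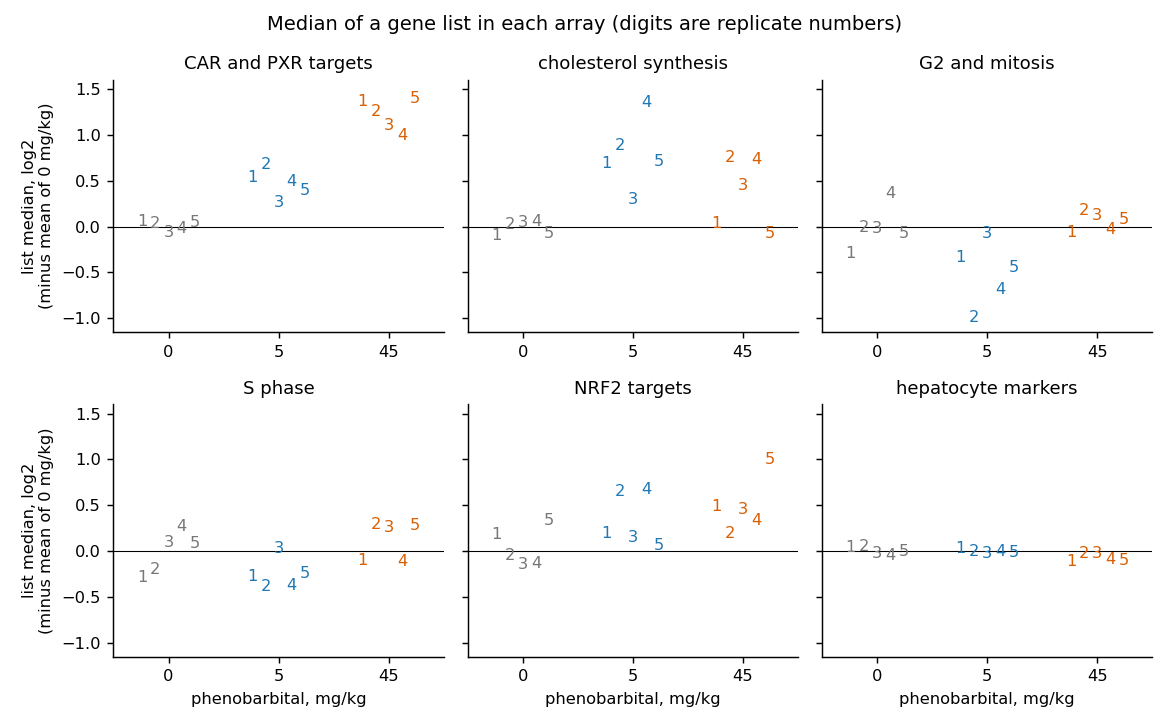
Median over the members of 6 gene lists in each phenobarbital array, as log2 expression minus the mean of the 0 mg/kg arrays, with the replicate number as the mark and dose on the horizontal axis. At 5 mg/kg replicate 3 is nearest to the controls for cholesterol synthesis and for G2 and mitosis, while hepatocyte markers stay near 0 in all arrays.

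The same arrays were at the edge of several lists. Treated replicates 2 and 4 had the 2 highest cholesterol synthesis medians (0.88 and 1.35), the 2 lowest G2 and mitosis medians (-0.99 and -0.68) and the 2 highest medians of the NRF2 target list (0.65 and 0.67, beside 0.19, 0.15 and 0.06 in the other treated arrays). The NRF2 medians of the controls were -0.14 to 0.33, and control replicate 5, at 0.33, was above those 3 treated arrays. NRF2 is the sensor of oxidative and electrophilic stress. Of its 20 measured targets 0 were called with limma and 16 had a higher mean (44.7% of all genes did), with a median of 0.31. Akr7a3, an aldehyde reductase, read 9.36, 11.21, 8.84, 11.33 and 8.83 at 5 mg/kg and 9.66, 8.24, 8.5, 8.35 and 9.33 in controls, a difference of 1.1 ± 0.53 (limma adjusted p = 0.74). Whether litter or another unlabelled source sets these arrays apart was not tested.

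Marker lists of other liver cell types moved little. The median difference was 0 for 11 hepatocyte markers, -0.09 for 12 Kupffer cell and macrophage markers, -0.1 for 12 stellate cell and fibroblast markers, -0.02 for 9 endothelial markers, -0.03 for 6 cholangiocyte markers, -0.02 for 14 lymphocyte markers, -0.11 for 6 neutrophil and myeloid markers, 0.1 for 8 erythroid markers and -0.06 for 11 pancreas and gut markers, with none called. The summed log2 level of the hepatocyte markers was 144.2 to 147 in controls and 145.2 to 147 at 5 mg/kg. That of the stellate markers was 87.9 to 93.9 and 86.1 to 94. Some markers lie near the ends of the array's range, such as Alb at 14.9 to 14.94 and Prss1 at 3.08 to 3.51. Whether this hid changes in them was not tested. Circadian clock genes, which can follow the hour of sampling, had a median of -0.03 over 16 genes.

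**Figure D5:**
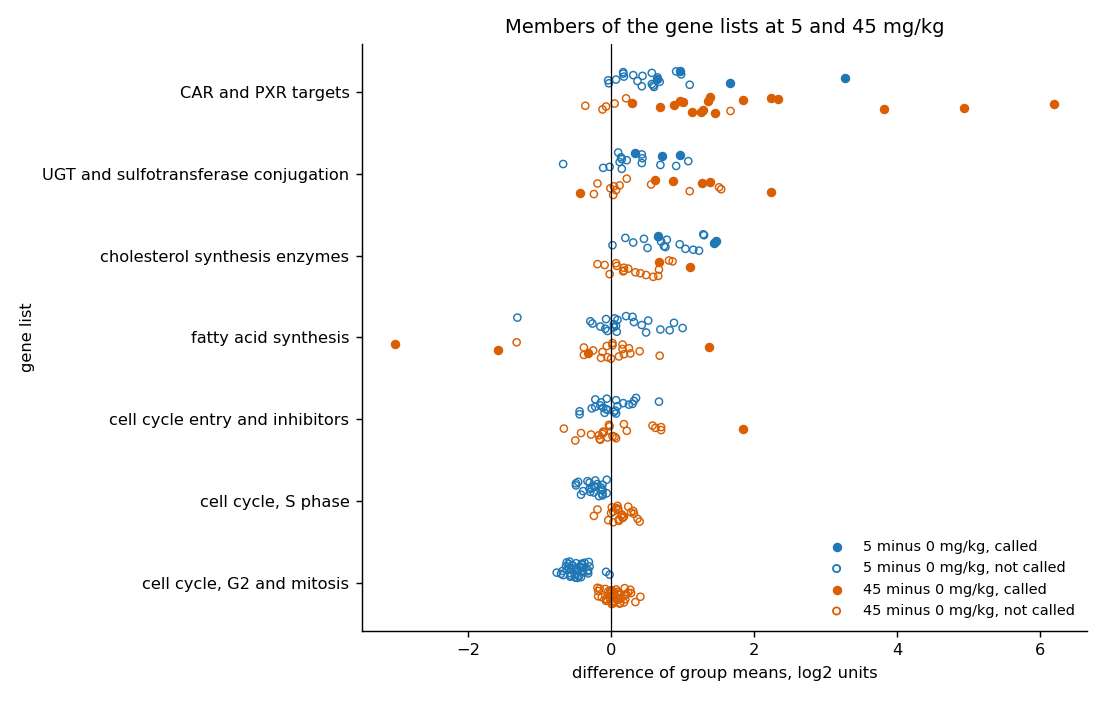
Difference of group means in log2 units for each measured member of 7 gene lists, at 5 minus 0 mg/kg (blue) and 45 minus 0 mg/kg (orange), filled where limma called the gene at an adjusted p below 0.05 (n = 5 arrays per group, shared controls). At 5 mg/kg all 19 cholesterol synthesis enzymes lie above 0 and all 41 G2 and mitosis genes below 0, with 3 and 0 of them called.

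The 3 genes that fell belong to none of these groups. Creb3l3, which encodes a liver-enriched transcription factor anchored in the endoplasmic reticulum, read 11.13, 10.99, 10.76, 11.19 and 11.23 in controls and 10.22, 10.26, 10.23, 10.43 and 10.41 at 5 mg/kg. The treated arrays lay close together below all controls, and the gene fell by 0.75 log2 units (SE 0.17, 1.68-fold, limma adjusted p = 0.037). It stood at 10.27 to 11.06 at 45 mg/kg, where the difference of -0.31 was not called (adjusted p = 0.46), and its call held in 1 of the 10 fits without an array. Inhbb, which encodes the beta B subunit of activin and inhibin, read 4.59, 4.53, 4.19, 5.84 and 5 against 3.39, 3.01, 3.23, 3.51 and 3.62. It fell by 1.48 log2 units (SE 0.33, limma adjusted p = 0.037), the adjusted p was 0.23 without control replicate 4, and the difference at 45 mg/kg was -1.46 (adjusted p = 0.0039). C2h3orf80, an uncharacterised gene, read 4.37, 3.24, 3.4, 5.64 and 4.22 against 2.86, 2.91, 2.97, 3.17 and 2.63. It fell by 1.27 log2 units (SE 0.22 from the spread over 72 samples, limma adjusted p = 0.0014). The SD among its own 5 controls was 0.96, and in the fit of the 10 arrays alone the SE was 0.36 and the call was lost. Its mean over the series is above only 7.31% of genes and that of Inhbb above 16.9%, near the lowest value in the table (1.96).

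Slc17a3 was the one called gene with overlap. Controls read 9.8, 9.92, 9.96, 9.6 and 10.16 and treated arrays 10.36, 10.99, 10.09, 10.85 and 10.36, with replicates 2 and 4 highest. It rose by 0.64 ± 0.15 (limma adjusted p = 0.039), had an adjusted p of 0.36 without treated replicate 2, and differed by 0.25 at 45 mg/kg (adjusted p = 0.5). Just outside the threshold, with limma adjusted p from 0.066 to 0.11, stood Pctp, a phosphatidylcholine transfer protein, at -0.53 ± 0.12, followed by Cyp51, Cyp2c11, Hsd17b7, Ugt2b10, Cyp3a23-3a1, Car2, Sqle, Ndufb3 and Polg. Ndufb3, a subunit of respiratory complex I, differed by -0.28 ± 0.07, and Polg, the mitochondrial DNA polymerase, by -0.52 ± 0.13 with another probe set at 0.26.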

How the data were processed

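Liver RNA of rats was hybridised to Affymetrix expression arrays. Per the submitters' processing notes, the log2 values that the authors deposited for each probe set come from robust multi-array average (RMA). The RMA version is not given in the sources used here. Precision is limited by the number of arrays. RMA shares its normalization over arrays, so a level is relative to the other genes of the array.

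Of 31099 probe sets, 57 are controls and were dropped. Each of 14217 genes was read from 1 probe set, the brightest on average over the series among those annotated to that gene alone. No filter on dim genes was used. Near-identical arrays of one group elsewhere in the series were averaged, which left 72 samples in 15 groups. Near-identical pairs across dose groups, BDE-47 at 15 and 50 mg/kg and DE-71 at 15 and 50 mg/kg, were kept as separate samples. A linear model of group means was fitted with limma 3.58.1 in R 4.3.3 (57 residual and 5 prior degrees of freedom). P-values are two-sided and adjusted by Benjamini and Hochberg over all genes of a contrast, and "called", "rose" and "fell" mean an adjusted p below 0.05. The script was tested on simulated data.

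The members, gene lists and named genes were chosen with earlier results of these data known. Named are all called genes, the 10 next to the threshold, index genes of drug, sterol and cell cycle biology, all measured cholesterol synthesis enzymes, and the called members and the 3 lowest p (6 for cell cycle) of each other list. Akr7a3, Cltrn, Meox2, Acly, Fasn, Scd, Plk1 and Pcna, and the UGT2 neighbours outside the rule, were named after their values were seen. Alternatives changed the arrays in the fit, the replicate block, the normalization, the filter, the probe set rule and the variance model.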

Additional observations from a re-analysis of the deposited data

Results flagged for a closer look

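In 7 of 216 groups of 5 arrays, for the genes named, a single array stood far from the others by Dixon's test, which chance does in about 1 of 20 groups; the ratio of its gap to the group's range exceeded 0.71. At 5 mg/kg, Cyp2c6v1 was lowest in replicate 4 (13.72, others 13.92 to 13.98, ratio 0.77), Ugt2b1 lowest in replicate 2 (13.2, others 13.36 to 13.42, ratio 0.721) and Pcna highest in replicate 3 (10.28, others 9.91 to 9.99, ratio 0.795). Among controls, Dhcr7 was highest in replicate 3 (9.62, others 8.79 to 9.01, ratio 0.74) and Dlgap5 highest in replicate 4 (6.69, others 6.09 to 6.23, ratio 0.771). At 45 mg/kg, Cyp3a2 was highest in replicate 3 (14.26, others 14.13 to 14.16, ratio 0.825) and Ube2c lowest in replicate 1 (7.25, others 7.66 to 7.8, ratio 0.737).

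Probe sets outside the gene table also differed between 5 and 0 mg/kg in the limma fit over all probe sets. Those annotated to a pair of genes were 1371076_at (Cyp2b1 and Cyp2b2) at 1.13, 1368180_s_at (Gsta2 and Gsta5) at 0.93 and 1370352_at (Ces1f and Cesl1) at 0.84, with adjusted p of 0.0038, 0.032 and 0.0028. Probe sets with no gene in the annotation were 1375852_at at 1.42, 1388743_at at 0.94 and the dim 1384168_at at -0.45, with adjusted p of 0.042, 0.032 and 0.028. The levels of 1375852_at at 5 mg/kg were 9.8, 10.91, 9.49, 11.28 and 9.96, highest in replicates 2 and 4, against 8.75 to 8.99 in controls.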

How the results depend on the processing

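Leaving out single arrays gave 5 to 24 called genes, 3 to 5 called CAR and PXR targets, 0 to 9 called cholesterol synthesis enzymes, 1 to 3 called UGT and sulfotransferase genes and 0 called G2 and mitosis genes each time. Of the 24 genes called without 5 mg/kg replicate 3, 13 were among the 15. With the 15 phenobarbital arrays alone, 7 CAR and PXR targets were called (22 genes in all, 10 of them among the 15), and with the 10 arrays at 0 and 5 mg/kg alone 1 UGT or sulfotransferase gene was called (15 genes in all, 7 of them shared). The cause of these shifts was not tested. Without the DE-71 50 mg/kg array that correlates least with its group, an alternative chosen after seeing the data, the same 15 genes were called.

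Replicate numbers did not pair the samples: deviations of same-numbered arrays at 0 and 5 mg/kg correlated at -0.11 to 0.13. The replicate block gave 13 called genes, and in the 15 phenobarbital arrays alone 25 (9 of them among the 15), with 5 cholesterol synthesis enzymes. Of the 5 treated arrays, 0 correlated best with the control of their own number.

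Ggps1 turned to -0.01 under repeated quantile normalization, -0.07 with all probe sets averaged, -0.2 with the most variable probe set and -0.01 to 0.04 without single arrays; Srebf2 turned to -0.02 with all probe sets averaged and Cdkn1a to 0.2 with the most variable probe set. Of 1648 values of named genes at 5 mg/kg under these alternatives, these 6 turned sign, 1523 kept direction and call, 86 lost the call and 33 gained it.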
